A study of Mus musculus with 32 samples.

Results

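The LIM-homeodomain genes Lhx1, Lhx2, Lhx9 and Lmx1b, their LIM-domain-binding cofactors Ldb1 and Ldb2, and the LIM-only genes Lmo1 and Lmo4 were followed through 32 lists of open chromatin summits from mouse limb buds. A summit was given to a member when it lay in the gene body or within 50 kb of it and when the nearest start of any protein-coding gene belonged to that member. This gave 1144 of 1234971 listed summits to the 8 members, of 21924 protein-coding genes, and placed them in 131 of 133163 intervals of 200 bp. Neighbouring intervals of one gene were joined into 89 member sites, of 95792 sites in all, and each site is called by its distance from the 5′ end of its gene. The members were chosen from the presence and rank of their summits in the EYFP+ lists beside the knockout, wild-type and E9.5 lists, so that contrast is described below and was not tested.

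LIM-homeodomain factors pair a DNA-binding homeodomain with LIM domains that bind LDB proteins. LDB1 and LDB2 dimerise and so bridge factors bound at different sites, while LIM-only proteins such as LMO1 and LMO4 carry LIM domains without a homeodomain and compete for the same LDB partners. In the limb bud, Lmx1b gives the mesenchyme its dorsal identity, Lhx2 and Lhx9 act in the distal mesenchyme that links ectodermal FGF signals to Shh, and Lhx1 is best known from kidney precursors and from motor neurons that grow into the dorsal limb.

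The study profiled open chromatin by ATAC-seq around the action of ETV2, an ETS transcription factor that directs endothelial and blood fates, in the limb bud. EYFP+ cells came from E10.5 forelimbs (3 lists) and hindlimbs (3 lists) of Etv2-EYFP embryos, in which the Etv2 promoter drives EYFP, after CD31, TIE2 and CD45 positive cells had been excluded, and each of the 3 cell pools gave 1 forelimb and 1 hindlimb list. Etv2CKO hindlimbs were HoxB6-Cre Tg/+; Etv2 fl/-, collected at E10.25 (5 lists) and as posterior hindlimb at E10.5 (2 lists). HoxB6-Cre acts across the hindlimb precursor and in only some of the forelimb. Wild-type hindlimb gave 2 lists at E10.25 and 1 at E9.5, and both the wild-type and the Etv2CKO samples pooled several embryos. The study names posterior hindlimb cells for the E10.25 wild-type and Etv2CKO samples, while their labels do not give the side. At E10.5 there was 1 Posterior list, of Shh-EGFP+ cells, and 1 Anterior list, both from hindlimbs of Shh-EGFP embryos. In the overexpression experiment embryos carrying HoxB6-Cre Tg/+, ROSA26-STOP-rtTA-IRES-EGFP Tg/+ and iHA-Etv2 Tg/+ were given doxycycline, which switches on HA-tagged Etv2 in Cre-expressing cells. Its anterior and posterior hindlimb samples came from 3 overexpressing embryos and from 4 controls. The study's methods describe controls as littermates that lacked the iHA-Etv2 or the rtTA transgene. Its legend for stained embryos instead gives controls that carried both transgenes and lacked HoxB6-Cre. The control genotype of these samples is therefore in doubt. A letter in the labels gives the side, anterior or posterior. These samples are labelled E10.5. The study describes doxycycline injections at E9.5 and E10.5 and a later harvest of such embryos, and names no separate stage for ATAC-seq, so the stage is in doubt. The E9.5 list and the 7 Etv2CKO lists are called non-expressing below.

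Each list held between 13763 and 54676 summits off the mitochondrial genome, with a -log10 q as the only value, so read depth was unknown and a missing summit did not show closed chromatin. Within a list, summits were ranked by that value and given a rank score from 1, the best, down to just above 0, with 0 for a summit not listed. The single Anterior list was the shortest and held 4 member summits, at Lhx2 11.7 kb, Lmo4 18.7 kb, Lmo1 16.7 kb and Lmo1 21.5 kb. The E10.25 Etv2CKO replicates 2 and 4 were also short, with 15626 and 19734 summits, and held 7 and 18 member summits beside 34 to 50 in the other 3. Pool 758 stood apart among the EYFP+ pools: its forelimb list held 51 member summits beside 28 and 36 in the other forelimb lists, while its hindlimb list held 37 beside 32 and 35.

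Marker promoters were counted as a summit within 500 bp of a start. Single genes of other cell types were listed about as often as most of the limb mesenchyme genes, while other genes of the same types were listed in few lists or none. For limb mesenchyme, Twist1 was listed in 31 of 32 lists, Prrx1 and Msx1 in 29 each and Prrx2 in 19. The hindlimb genes Pitx1 and Tbx4 were listed in 3 of 3 EYFP+ hindlimb and 1 of 3 EYFP+ forelimb lists, and the forelimb gene Tbx5 in 0 of 32, so its promoter did not mark the forelimb lists. Among endothelial genes the promoters of Pecam1 and Cdh5 were in 0 of 32 lists, Tek in 4 and Kdr in all 32. Of the blood genes Ptprc was in 0, Gata1 in 1 and Tal1 in 11, and of the muscle progenitor genes Pax3 was in 13 and Myf5 in 6. Neural and motor neuron promoters were mixed, with Nkx6-1 in 30, Pax6 in 28, Mnx1 in 9, Sox2 in 8 and Olig2 in 6. For ectoderm, Epcam was in 17, Cdh1 in 14 and Trp63 in 4, for neural crest Sox10 was in 2, and for intermediate mesoderm Osr1 was in 26, Wt1 in 10, Pax2 in 5 and Pax8 in 0. Any part of other cell types in the member sites was not tested, and a change in the number of cells of one type cannot be told apart from a change within cells.

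A set of 6 member sites carries most of what follows, and their DNA is shown on the strand of the gene from GRCm38.p6 (mm10). Capitals mark the words searched for on both strands. TAATTA is bound by many homeodomain proteins, those of the LIM class included. The ETS factors were represented by AGGAAGT and by a like word, AGGAAAT. The GATA factors were represented by AGATAA and by a like word, TGATAA, which reads TTATCA on the other strand. The E-box word was CAGCTG, and in these sites no word overlaps another. Lhx9 10.7 kb, Lmo4 31.2 kb and Lmo4 18.7 kb were, with Lmo4 40.1 kb, the sites listed in all 6 EYFP+ lists and in at most 2 of 8 non-expressing lists, Lmo1 29.8 kb was listed the other way round, and Lhx9 6.1 kb and Ldb2 245.6 kb, with Lhx9 10.7 kb, are those that passed a test between anterior and posterior hindlimb.
Lhx9 10.7 kb downstream, chr1:138837800-138837999, minus strand, in an intron: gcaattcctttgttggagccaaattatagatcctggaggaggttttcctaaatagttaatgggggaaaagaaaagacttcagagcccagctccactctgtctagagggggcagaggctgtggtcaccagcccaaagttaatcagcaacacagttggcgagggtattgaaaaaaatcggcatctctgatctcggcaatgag
Lhx9 6.1 kb downstream, chr1:138842458-138842618, minus strand, in an intron: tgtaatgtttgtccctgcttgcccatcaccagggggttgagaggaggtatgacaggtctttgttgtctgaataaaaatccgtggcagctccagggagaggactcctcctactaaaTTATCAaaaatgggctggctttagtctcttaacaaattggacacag
Lmo4 31.2 kb downstream, chr3:144173911-144174110, minus strand, intergenic: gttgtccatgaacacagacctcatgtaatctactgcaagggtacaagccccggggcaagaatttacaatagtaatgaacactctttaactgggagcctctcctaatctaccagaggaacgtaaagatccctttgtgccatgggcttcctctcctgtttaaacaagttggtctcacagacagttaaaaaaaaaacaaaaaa
Lmo4 18.7 kb upstream, chr3:144223817-144224016, minus strand, intergenic: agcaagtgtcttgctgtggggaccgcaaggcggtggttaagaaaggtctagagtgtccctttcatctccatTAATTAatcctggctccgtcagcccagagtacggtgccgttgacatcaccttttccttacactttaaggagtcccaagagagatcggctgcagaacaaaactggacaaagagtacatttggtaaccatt
Lmo1 29.8 kb downstream, chr7:109145260-109145459, minus strand, in an intron: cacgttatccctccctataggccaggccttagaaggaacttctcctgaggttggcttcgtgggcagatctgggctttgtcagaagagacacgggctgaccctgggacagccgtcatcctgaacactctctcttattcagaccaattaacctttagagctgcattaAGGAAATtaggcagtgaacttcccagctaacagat
Ldb2 245.6 kb downstream, chr5:44553941-44554140, minus strand, in an intron: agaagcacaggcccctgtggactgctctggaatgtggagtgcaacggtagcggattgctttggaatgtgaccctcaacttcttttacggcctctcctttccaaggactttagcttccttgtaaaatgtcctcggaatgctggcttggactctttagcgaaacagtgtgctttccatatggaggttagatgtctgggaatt

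The 89 sites were spread as 43 in introns, 5 in exons or UTRs and 41 outside the gene, and 13 lay within 500 bp of an annotated start. Most were listed by few libraries: 26 were in over 16 of the 32 lists, 9 (10.1%) in at least 28, where 15% of all sites were, and 20 (22.5%) in only 2 or 3, where 25.5% of all sites were. In the EYFP+ lists, 15 sites were in all 6 and 27 in none. In the overexpression experiment, 14 sites were in all 14 lists and another 14 in none. For the EYFP+ and overexpression counts no share of all sites is given, so they only describe the members.

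**Figure D1:**
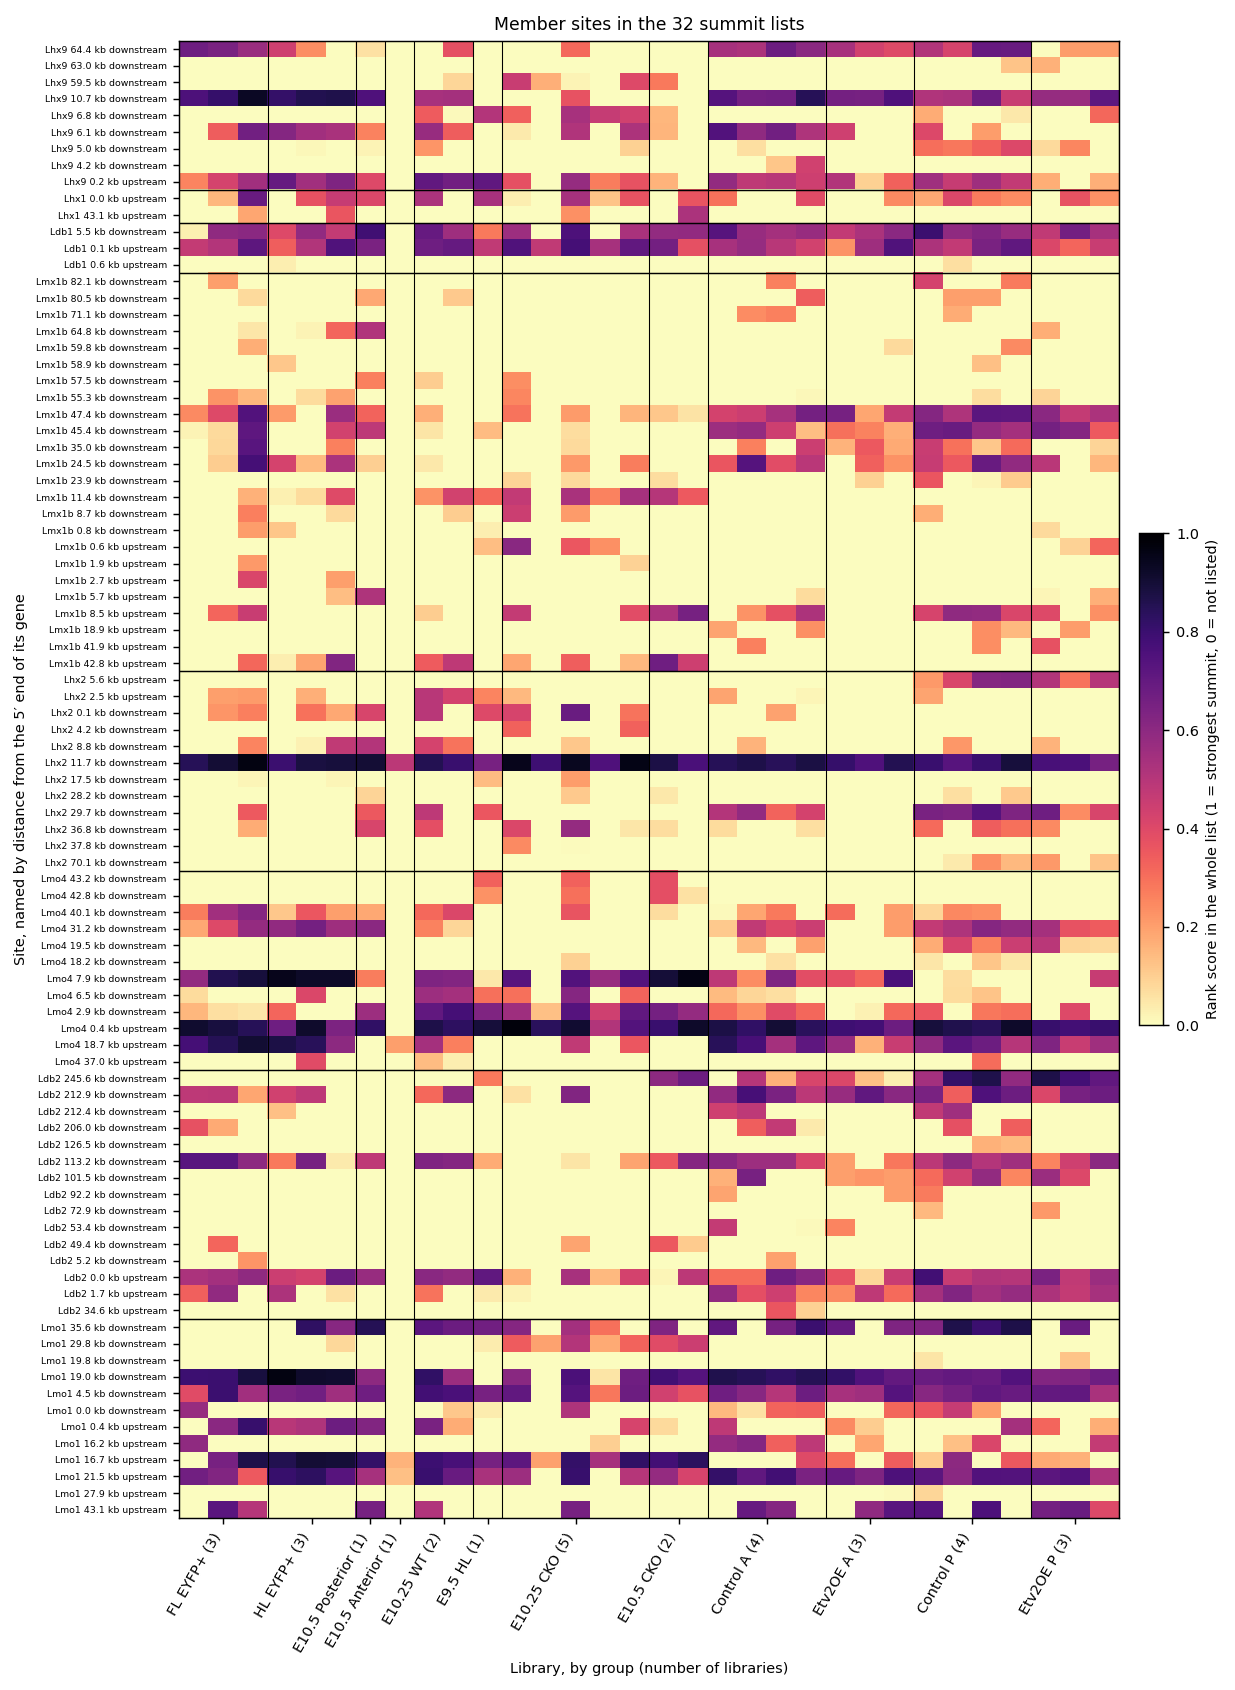
Rank score of each of the 89 member sites (rows, grouped by gene) in each of the 32 lists (columns, grouped by condition), from whole lists, with 0 for a site that was not listed. Lhx2 11.7 kb was filled in every column, while Lmo1 29.8 kb was filled in the 8 non-expressing columns and in 1 EYFP+ column.

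Over all 8 members the EYFP+ lists held 28 to 51 member summits (median 35.5) and the non-expressing lists 7 to 50 (median 33.5), so the groups overlapped. Per 10000 listed summits the median was 7.82 in forelimb EYFP+ lists, 9.92 in hindlimb EYFP+ lists and 11.3 in the E10.25 Etv2CKO lists, which ranged from 4.48 to 12.9. In the overexpression experiment the anterior lists held 28 to 34 member summits with Etv2 overexpression and 40 to 44 in controls. The overexpression lists were also shorter, at 32666 to 37993 summits beside 40945 to 45762, and per 10000 summits the anterior groups overlapped, at 7.54 to 9.49 and 9.24 to 9.77. The part of list length in the raw counts was not tested.

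Beside the non-expressing lists, the sites that stood out in EYFP+ cells were at Lhx9 and Lmo4. An interval was counted on the EYFP+ side when at least 5 of 6 EYFP+ and at most 1 of 8 non-expressing lists held it, which 5 of 131 member intervals did beside 2.56% of all 133163 intervals. They were Lhx9 64.4, 10.7 and 0.4 kb downstream and Lmo4 40.1 and 31.2 kb downstream. The mirror pattern, at least 7 of 8 non-expressing and at most 1 of 6 EYFP+ lists, was met by 0 member intervals beside 0.202% of all. With neighbouring intervals joined, 3 of 89 member sites were on the EYFP+ side (Lhx9 64.4 kb, Lhx9 10.7 kb and Lmo4 31.2 kb) beside 3.72% of all sites, and 1 was on the other side (Lmo1 29.8 kb) beside 0.324%. These patterns use the contrast by which the members were chosen, and nothing is read from the counts. The interval count on the EYFP+ side was 8 without E10.25 Etv2CKO replicate 3 (3.22% of all intervals) and 8 without replicate 5 (2.7% of all), and on the other side it was 1 without E10.5 Etv2CKO replicate 1 (0.269% of all) or replicate 2 (0.366% of all). Without pool 758 the counts were 8 and 1, where the shares of all intervals also rose, to 5.11% and 0.43%. Without the 2 shortest E10.25 Etv2CKO lists they were 5 and 2, beside 2.66% and 0.994% of all. On the other side the 5 intervals with the largest difference in share, ties going to the higher mean rank score, were Lmo1 5.3 kb, Lhx9 6.8 kb and one at the Lmo1 29.8 kb site (each 0 of 6 and 5 of 8), one beside the Lhx2 11.7 kb site (1 of 6 and 6 of 8) and Lmo4 2.9 kb (3 of 6 and 8 of 8). Lmo4 18.7 kb upstream (6 of 6 and 2 of 8) was among the 5 on the EYFP+ side. Some intervals tied in share with the last of the 5 named and had a lower mean rank score, namely Lmo4 40.1 kb (5 of 6 and 1 of 8) on the EYFP+ side and Lhx9 7.0 kb and Lhx9 59.5 kb (each 0 of 6 and 4 of 8) on the other.

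Lhx9, which acts in distal limb mesenchyme, held 9 sites on chr1:138825186-138848577 and its flanks. At Lhx9 10.7 kb the whole-list rank scores were 0.755, 0.81 and 0.931 in forelimb and 0.815, 0.856 and 0.864 in hindlimb EYFP+ cells. The same site was not listed at E9.5 or in either E10.5 Etv2CKO list, and scored 0.37 in 1 of the 5 E10.25 Etv2CKO lists, replicate 3, the longest of them. It was listed at 0.533 and 0.541 in the E10.25 wild-type lists, at 0.753 in the Posterior list and in 14 of 14 lists of the overexpression experiment. All 6 EYFP+ values stood above every non-expressing value, and the E10.25 wild-type values lay between. The site was named by the contrast of EYFP+ and non-expressing lists, so nothing is read from this order.

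The Lhx9 64.4 kb site, downstream of the gene, was listed in 5 of 6 EYFP+ lists, at 0.675, 0.646 and 0.568 in forelimb and at 0.441, 0.237 and 0 in hindlimb. One of 8 non-expressing lists held it, at 0.313, and 13 of 14 overexpression-experiment lists did. The forelimb values stood above the hindlimb values without overlap in whole lists, but on equal list lengths they overlapped, at 0.597, 0.456 and 0.303 beside 0.399, 0 and 0. The Lhx9 6.8 kb site ran the other way, with 0 of 6 EYFP+ and 6 of 8 non-expressing lists, scoring 0.504 at E9.5, 0.152 and 0 at E10.5 and 0.333, 0, 0.533, 0.464 and 0.434 at E10.25 in Etv2CKO. Both E10.25 wild-type lists held it too, at 0.347 and 0.0096, so the site was not confined to the non-expressing lists. Lhx9 59.5 kb was in 0 of 6 EYFP+ and 5 of 8 non-expressing lists, in 1 of 2 wild-type lists and in 0 of 14 of the overexpression experiment. The Lhx9 promoter site, 206 bp upstream of the start, was in 28 of 32 lists, in 6 of 6 EYFP+ lists at 0.256 to 0.696 and in 6 of 8 non-expressing lists at up to 0.708. Its downstream shoulder, the interval Lhx9 0.4 kb, was in 5 of 6 and 1 of 8.

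Lmx1b, the dorsal determinant, held the most sites, 24, over chr2:33560965-33640511 and its flanks, 14 of them in introns. Its start was bare: 0 of 32 lists held a summit within 500 bp of it, and the nearest site, 637 bp upstream, was in 6 lists. The sites held most often were Lmx1b 47.4 kb in 26 lists, 45.4 kb in 22 and 24.5 kb in 21, all in introns. Lmx1b 11.4 kb was in 7 of 8 non-expressing lists, with 0.314 at E9.5 and 0.502 and 0.349 in E10.5 Etv2CKO, and in both E10.25 wild-type lists at 0.226 and 0.431. In EYFP+ cells it scored 0, 0 and 0.161 in forelimb and 0.0311, 0.0733 and 0.397 in hindlimb, with the highest value of each limb in pool 758. Lmx1b 42.8 kb upstream gave a like series, in 5 of 8 non-expressing, 4 of 6 EYFP+ and 2 of 2 wild-type lists. Both sites were in 0 of 14 lists of the overexpression experiment, which differed from the other lists in the tissue taken, in single embryos against pools and in the experiment itself, and these cannot be told apart.

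The number of Lmx1b summits per EYFP+ list ranged from 2 to 17 with a median of 6.5, and pool 758 gave the 17 in forelimb and 11 in hindlimb. Of all 89 member sites, 4 were in both EYFP+ lists of pool 758 and in no other EYFP+ list (Lmx1b 8.7 kb, Lmx1b 2.7 kb upstream, Lhx2 17.5 kb and Lhx1 43.1 kb), and 0 were in all 4 of the other EYFP+ lists and in neither of pool 758. No share of all sites in the series is given beside these counts, so they are not read as a trait of the members.

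Lhx2, the partner of Lhx9 in distal mesenchyme, held 12 sites on chr2:38339281-38369733 and its flanks. The site listed most often was not the 5′ start but an internal start at Lhx2 11.7 kb, in the UTR of a shorter transcript, which was in 32 of 32 lists, with scores of 0.798 to 0.967 in EYFP+ cells, 0.652 to 0.96 in the non-expressing lists and 0.488 in the short Anterior list. The site 92 bp downstream of the 5′ start was in 11 lists, 4 of 6 EYFP+, 4 of 8 non-expressing and 1 of 14 of the overexpression experiment. Lhx2 5.6 kb upstream was in 7 of 32 lists, and these were the 7 posterior samples of the overexpression experiment, 4 control and 3 overexpression. Lhx1 held only 2 sites, on chr11:84518284-84525535 and its flanks. Its promoter, 31 bp upstream of the start, was in 21 lists, 4 of 6 EYFP+ and 6 of 8 non-expressing, and Lhx1 43.1 kb upstream was in 4.

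**Figure D2:**
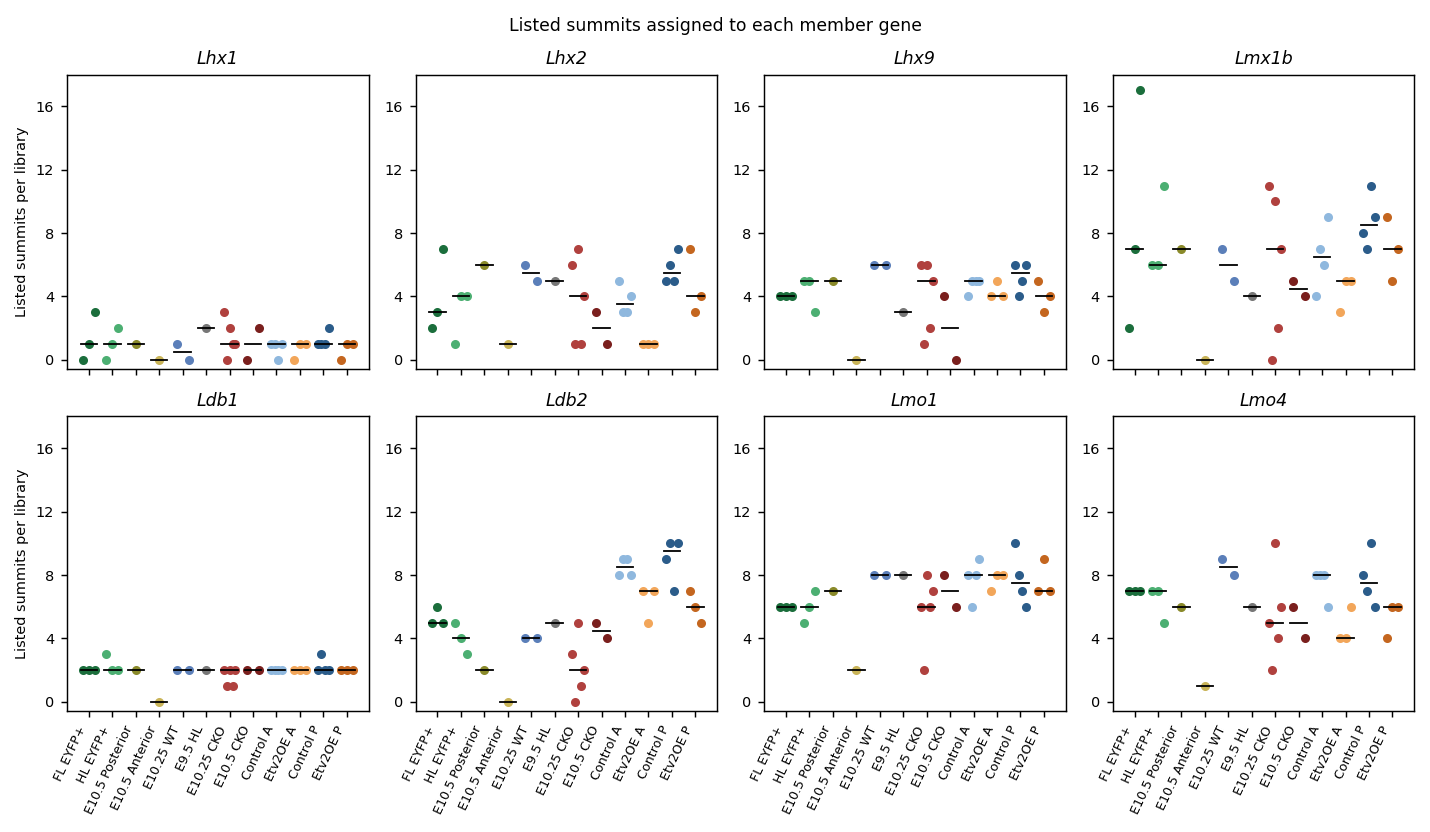
Number of listed summits given to each member (panels) in each of the 32 lists (points, grouped by condition on the x axis), from whole lists of unequal length. The highest Lmx1b count was 17, in the forelimb list of pool 758, and Ldb2 reached 7 to 10 in posterior control samples beside 3 to 6 in EYFP+ cells.

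The cofactor genes divided into one that was listed nearly everywhere and one whose sites varied. Ldb1, the LDB protein of most LIM-homeodomain complexes, held 3 sites on chr19:46031570-46045214 and its flanks, of which the promoter site, 104 bp upstream and within an intron of the overlapping gene Pprc1, was in 31 of 32 lists and Ldb1 5.5 kb in 29. The promoter scored 0.338 to 0.749 in EYFP+ cells and 0.375 to 0.774 in the non-expressing lists, and the groups overlapped over nearly their whole range. The list without it was the Anterior list.

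Ldb2, the second LDB gene, held 15 sites over the 327.5 kb of chr5:44472132-44799680 and its flanks. The promoter site, 3 bp from the start, was in 30 lists. Ldb2 245.6 kb, deep in the gene body, was in 0 of 6 EYFP+ lists, in both E10.5 Etv2CKO lists at 0.598 and 0.679, at E9.5 at 0.28, in 0 of 5 E10.25 Etv2CKO and 0 of 2 E10.25 wild-type lists, and in 13 of 14 lists of the overexpression experiment. Ldb2 101.5 kb was in 11 lists, all of that experiment and of both genotypes. Ldb2 summits numbered 8 to 9 in anterior and 7 to 10 in posterior controls, 5 to 7 with Etv2 overexpression and 3 to 6 in EYFP+ cells. These are counts from whole lists of unequal length. Among the best 15000 summits of each list the mean was 0.5 in anterior and 1 in posterior controls. With overexpression it was 0.667 in anterior and 1.67 in posterior samples, and in EYFP+ cells it was 0.667.

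Among the 89 sites the largest difference in share between EYFP+ and non-expressing lists was at an Lmo4 site, and the largest the other way was at an Lmo1 site. Lmo4 31.2 kb, downstream of the gene at chr3:144188530-144205220, scored 0.183, 0.4 and 0.581 in forelimb and 0.586, 0.658 and 0.557 in hindlimb EYFP+ cells and was in 0 of 8 non-expressing lists. It was also in both E10.25 wild-type lists, at 0.26 and 0.0831, in the Posterior list at 0.602, and in 12 of 14 overexpression-experiment lists. Lmo4 18.7 kb upstream, the site with TAATTA, scored 0.776, 0.848 and 0.904 in forelimb and 0.872, 0.842 and 0.6 in hindlimb EYFP+ cells. Among non-expressing lists it was in E10.25 Etv2CKO replicates 3 and 5, at 0.476 and 0.356, and the E10.25 wild-type lists held it at 0.541 and 0.268. Every EYFP+ value was above every non-expressing value at both sites. The sites were named by that same contrast, so nothing is read from this order.

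The Lmo4 2.9 kb site, at the UTR of the gene and joined from 2 intervals, was in 8 of 8 non-expressing lists and in 4 of 6 EYFP+ lists. Its non-expressing scores were 0.629 at E9.5, 0.658 and 0.582 at E10.5 and 0.556, 0.129, 0.738, 0.439 and 0.707 at E10.25 in Etv2CKO, above the 0.152, 0.0633 and 0.0469 of forelimb EYFP+ cells except that E10.25 replicate 2, one of the short lists, lay below the highest of these. Hindlimb EYFP+ cells gave 0.322, 0 and 0, while E10.25 wild type gave 0.704 and 0.774 and so stood with the Etv2CKO. Lmo4 42.8 and 43.2 kb downstream were in 4 and 3 of the 8 non-expressing lists and in no other list. The Lmo4 promoter site, 363 bp upstream, was in 31 of 32 lists.

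Lmo1 29.8 kb, in an intron of the gene at chr7:109138572-109175207, was listed the other way round. It scored 0.0373 at E9.5, 0.392 and 0.447 in E10.5 Etv2CKO and 0.344, 0.193, 0.507, 0.176 and 0.325 in E10.25 Etv2CKO. One of 6 EYFP+ lists held it, the hindlimb list of pool 758 at 0.0809, and 0 of 2 wild-type lists, 0 of 14 overexpression-experiment lists and neither the Posterior nor the Anterior list did. All 7 Etv2CKO values were above the 1 EYFP+ value, and the E9.5 value was below it. This site too was named by that contrast, and nothing is read from the order. The Lmo1 sites in most lists were Lmo1 4.5 kb in 30, 21.5 kb upstream in 30 and 19.0 kb in 29, while Lmo1 19.8 kb and 27.9 kb upstream were in 2 lists each, all of the overexpression experiment. Around the Lmo1 start, the summit 372 bp upstream was in 5 of 6 EYFP+ and 2 of 8 non-expressing lists, and the summit 31 bp downstream was in 1 of 6 and 2 of 8 and in 8 of 14 overexpression-experiment lists.

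**Figure D3:**
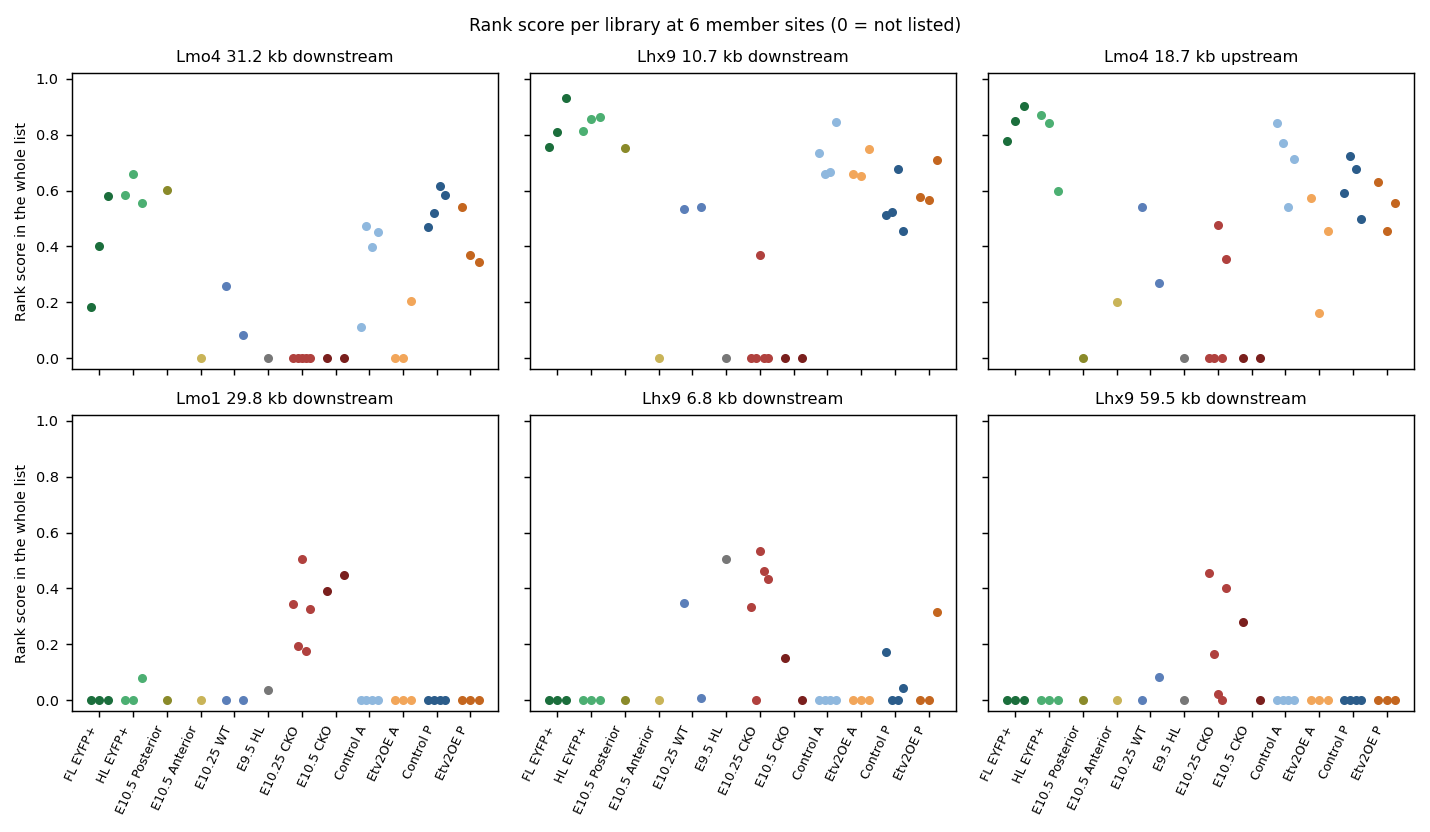
Whole-list rank score of 6 member sites (panels) in each list (points, grouped by condition), with 0 for a site that was not listed. At Lmo4 31.2 kb all 8 non-expressing points lie at 0, and at Lmo1 29.8 kb all 14 points of the overexpression experiment do.

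Forelimb and hindlimb EYFP+ cells were compared by limma on rank scores of the best 30000 summits of each list, with Benjamini-Hochberg adjustment over 45802 intervals. No member interval passed among the 36 tested, 0 higher beside 0.0175% of all intervals and 0 lower beside 0.0306%. At an unadjusted limma p under 0.05, 1223 of all 45802 intervals were higher and 1414 lower, and of the member intervals 0 were higher and 2 lower. The first of these, Lmo4 31.2 kb, scored 0, 0.0794 and 0.325 in forelimb and 0.555, 0.529 and 0.493 in hindlimb. Its difference was -0.391 (SE 0.102, n = 3 and 3), with a limma adjusted p of 0.433, although the groups did not overlap. Lmo1 21.5 kb upstream scored 0.588, 0.425 and 0 in forelimb and 0.794, 0.768 and 0.694 in hindlimb, with a difference of -0.414 and a limma adjusted p of 0.79. Lhx9 10.7 kb was near level, at 0.764 ± 0.108 and 0.816 ± 0.025 (SD, n = 3 each). With pool as a block, which these lists share, the number of member calls was still 0.

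Wild-type and Etv2CKO hindlimb at E10.25 were compared over the best 15000 summits of each list and 24278 intervals, which left 16 member intervals to test. None passed, 0 higher in wild type beside 1.7% of all intervals and 0 lower beside 0.342%. At an unadjusted limma p under 0.05, 3 of the 16 were higher and 2 lower, beside 2000 and 854 of all 24278 intervals. The Lhx9 promoter interval scored 0.14 and 0.243 in wild type and 0 in all 5 Etv2CKO lists, a difference of 0.191 with a limma adjusted p of 0.179. It was tested through the wild-type lists alone. In whole lists the joined Lhx9 promoter site was in 4 of 5 Etv2CKO lists, at up to 0.577, beside 0.704 and 0.666 in wild type. The values of 0 on cut lists thus do not show that the promoter summit was absent. The interval beside the internal start of Lhx2 scored 0.571 and 0 in wild type and 0.883, 0.784, 0.822, 0.676 and 0.919 in Etv2CKO, a difference of -0.531 with a limma adjusted p of 0.194. The adjoining Lhx2 11.7 kb interval, which takes in some of the same summits, scored 0.571 and 0.548 in wild type and 0.883, 0.784, 0.822, 0 and 0.919 in Etv2CKO, a difference of -0.122 with a limma adjusted p of 0.844. The Ldb1 promoter gave 0.0565 and 0.31 beside 0.454, 0.451, 0.355, 0.39 and 0.406, a difference of -0.228 with a limma adjusted p of 0.316. The separation of values at these intervals did not pass adjustment with 2 wild-type lists, and leaving out either of them left 0 calls among all intervals.

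Etv2 overexpression was compared with control on each side of the hindlimb, in 1 limma fit of the 14 lists cut to their best 30000 summits. In anterior samples 0 of 47 member intervals tested rose beside 0.0948% of 46437 intervals, and 0 fell beside 0.056%. In posterior samples 0 of 35 rose beside 0.0551% of 45384 intervals, and 0 fell beside 0.0331%. At an unadjusted limma p under 0.05 the anterior samples had 0 member intervals higher and 4 lower, beside 2022 and 1512 of all 46437. The posterior samples had 1 higher and 2 lower, beside 1820 and 1612 of all 45384. The median difference of the member intervals was -0.0156 in anterior samples, where that of all intervals was -0.00166, and 0.0531 in posterior samples, where that of all was -0.00204.

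Lmo4 18.7 kb upstream scored 0.784, 0.671, 0.322 and 0.561 in anterior controls and 0, 0.0872 and 0.309 with overexpression, without overlap. The difference was -0.452 (SE 0.121, n = 3 and 4), with a limma adjusted p of 0.366. In posterior samples the same site averaged 0.331 ± 0.185 in controls (SD, n = 4) and 0.384 ± 0.066 with overexpression (SD, n = 3). Lhx9 6.1 kb scored 0.306, 0 and 0 in overexpressing anterior samples beside 0.653, 0.411, 0.505 and 0.266 in controls, a difference of -0.357 with a limma adjusted p of 0.281. It passed the threshold, as lower, when the anterior list of embryo 7 was left out (limma adjusted p of 0.031), which left overexpression values of 0 and 0. Over the anterior fits with 1 list left out, 32 to 58 of all intervals were lower. In posterior samples Lhx9 10.7 kb scored 0.339, 0.45 and 0.627 with overexpression and 0.15, 0.187, 0.411 and 0 in controls, a difference of 0.285 with a limma adjusted p of 0.519. The difference between the anterior and the posterior effect, added after seeing the data, passed for 0 of 53 member intervals in either direction, beside 0.0286% higher and 0.0353% lower of 59444, with Lmo4 18.7 kb at -0.505 and a limma adjusted p of 0.945.

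Between anterior and posterior hindlimb of controls the only member calls were at Lhx9, and they did not hold with embryo as a block. In control embryos 2 of 45 member intervals tested were higher in anterior samples, beside 0.855% of 48424 intervals, and 0 were lower, beside 1.01%. At Lhx9 6.1 kb the anterior controls scored 0.653, 0.411, 0.505 and 0.266 and all 4 posterior controls 0, a difference of 0.459 (SE 0.0822, n = 4 and 4) with a limma adjusted p of 0.0139. At Lhx9 10.7 kb they scored 0.64, 0.509, 0.506 and 0.766 beside 0.15, 0.187, 0.411 and 0, a difference of 0.418 (SE 0.0916, n = 4 and 4) with a limma adjusted p of 0.041. Neither pair of groups overlapped on these cut lists. An interval was tested when at least 2 of the compared cut lists held it, which Lhx9 6.1 kb met through anterior lists alone. In whole lists, posterior controls 1 and 3 also held Lhx9 6.1 kb, at 0.406 (rank 31088, just past the cut) and 0.207 (rank 43336), so the posterior values of 0 rest in part on the cut. The site was not confined to anterior samples elsewhere. The Posterior list held it at 0.261 and the short Anterior list did not. Both E10.25 wild-type lists, for which the study names posterior cells, held it at 0.574 and 0.34. Among EYFP+ lists, 2 of 3 forelimb and 3 of 3 hindlimb lists held it. With whole lists the limma adjusted p was 0.0377. With embryo as a block neither call passed, with limma adjusted p of 0.0713 and 0.172, and with lists cut at 15000 summits both were lost. The Lhx9 6.1 kb call held with any 1 control list left out. The Lhx9 10.7 kb call held without anterior embryo 2 (limma adjusted p of 0.0498) or posterior embryo 3 (0.0175), and was lost without any 1 of the other 6, at 0.0554 to 0.0989.

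A fit over both genotypes, added after seeing the data, gave the same Lhx9 calls and one at Ldb2, and with embryo as a block both Lhx9 calls were lost, with limma adjusted p of 0.085 at Lhx9 6.1 kb and 0.16 at Lhx9 10.7 kb. In it 2 of 53 member intervals were higher in anterior samples beside 1.59% of 59444 intervals, and 1 was lower beside 1.78%. Lhx9 6.1 kb gave a difference of 0.28 with a limma adjusted p of 0.0296, and its overexpression lists scored 0.306, 0 and 0 in anterior and 0 in all 3 posterior samples. Lhx9 10.7 kb gave 0.287 with a limma adjusted p of 0.0453, and its overexpression lists scored 0.578, 0.623 and 0.684 beside 0.339, 0.45 and 0.627, so that they overlapped. Ldb2 245.6 kb was lower in anterior samples, at 0, 0.281, 0 and 0.107 in controls and 0.268, 0.0543 and 0 with overexpression. Its posterior scores were 0.206, 0.68, 0.756 and 0.256 in controls and 0.797, 0.721 and 0.618 with overexpression. Other posterior material was mixed. The Posterior list, of 45346 summits, did not hold Ldb2 245.6 kb, nor did the short Anterior list or either E10.25 wild-type list. Both posterior E10.5 Etv2CKO lists held it, at 0.598 and 0.679 in whole lists.

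The Ldb2 245.6 kb difference was -0.491 (SE 0.0953, n = 7 and 7), with a limma adjusted p of 0.0146, and it passed in 20 of 21 alternatives, the embryo block included, where the adjusted p was 0.0342. Lhx9 6.1 kb passed in 11 of 21 and Lhx9 10.7 kb in 4 of 21, all in the same direction. The Lhx9 6.1 kb call over both genotypes was lost without any 1 of overexpression posterior embryos 7, 9 and 10, anterior control embryo 3 and posterior control embryos 2, 3 and 4, at 0.0544 to 0.059. The Lhx9 10.7 kb call held without overexpression posterior embryo 10 (0.0297) or posterior control embryo 3 (0.0171) and was lost without any other 1 list, at 0.0502 to 0.102. In control embryos alone Lhx9 6.1 kb passed in 13 of 15 alternatives, Lhx9 10.7 kb in 4 of 15, and the Ldb2 difference was -0.378 with a limma adjusted p of 0.2. The posterior lists were longer than the anterior, at 51265 to 54676 summits beside 40945 to 45762 in controls, and all were cut to the same length for the test. Lhx2 5.6 kb upstream, in posterior samples alone, gave a difference of -0.191 with a limma adjusted p of 0.129.

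**Figure D4:**
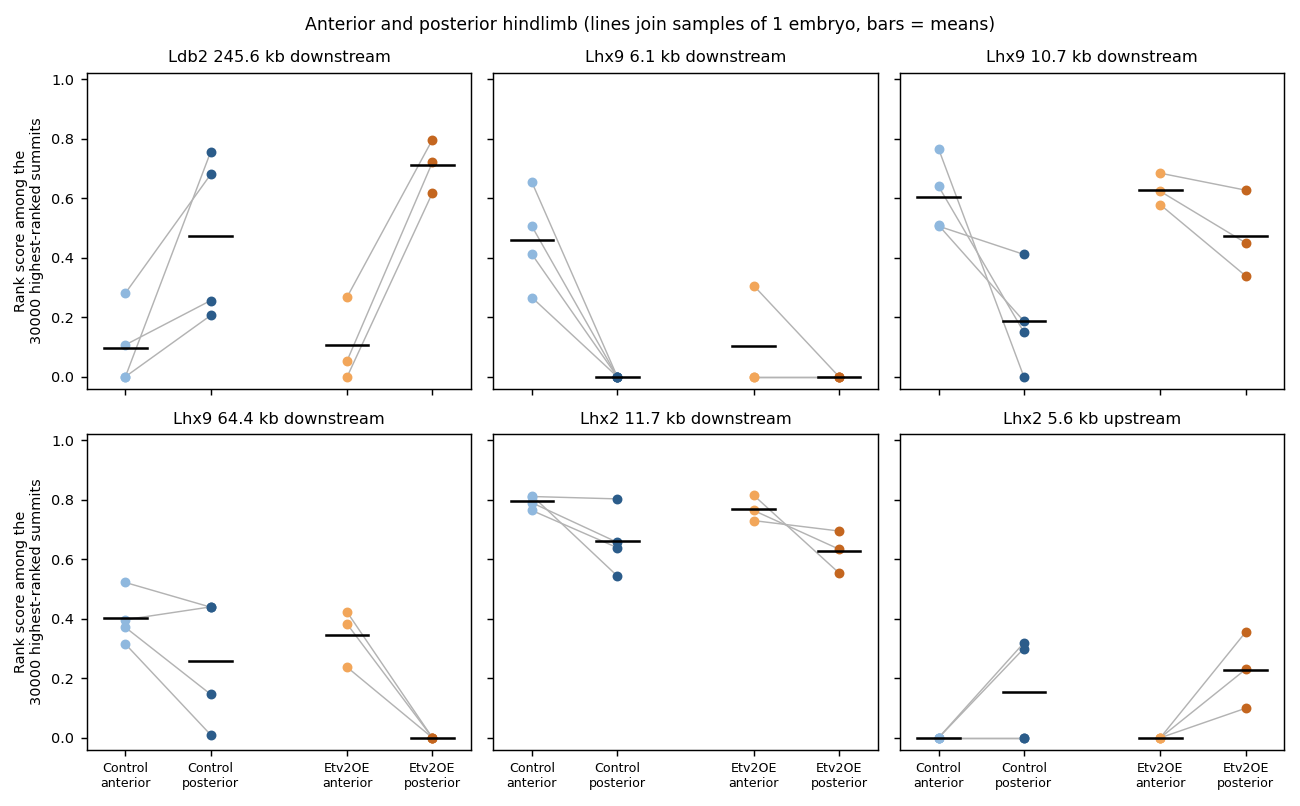
Rank score on the best 30000 summits of each list in anterior and posterior hindlimb samples of control and Etv2-overexpressing embryos (points, 1 per sample). Lhx9 6.1 kb lies at 0 in all 7 posterior samples on these cut lists, although whole lists hold it in 2 of the 4 posterior controls, and Ldb2 245.6 kb is at 0.206 or above in them.

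Of the 131 member intervals 19 (14.5%) held TAATTA, where 7.77% of all 133163 intervals did. Among members the word was in 6 of 31 Lmx1b, 5 of 18 Lmo4, 4 of 22 Lmo1, 2 of 18 Lhx9, 1 of 17 Lhx2, 1 of 3 Ldb1, 0 of 20 Ldb2 and 0 of 2 Lhx1 intervals. Of the 5 member intervals on the EYFP+ side, 0 held it, beside 21.6% of all 3409 intervals with that pattern. The ETS words were in 15 (11.5%) beside 11.9% of all, 5 of them at Lhx9 and 4 at Lmo1, and included AGGAAAT in Lmo1 29.8 kb and AGGAAGT in Lhx9 64.4 kb. The GATA words were in 12 (9.16%) beside 12.3% and the E-box word in 16 (12.2%) beside 15.5%. A match is a description of letters only, and base composition was not matched.

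Other genes of the network were followed as a list of 14, with Lhx3, Lhx4, Lhx5, Lhx6, Lhx8, Lmx1a, Isl1 and Isl2 for homeodomain factors, Lmo2 and Lmo3 for LIM-only proteins, Ssbp2, Ssbp3 and Ssbp4 for the single-stranded DNA-binding proteins that stabilise LDB, and Rlim for the ubiquitin ligase that removes it. They held 183 intervals at 133 sites, of which 2, both at Lmo3, had the EYFP+ pattern and 0 the mirror pattern. Between forelimb and hindlimb EYFP+ cells, between overexpression and control on either side, and between anterior and posterior controls, 0 of their intervals passed. At E10.25, 2 of 27 tested were higher in wild type than in Etv2CKO, 1 at Isl1, a hindlimb progenitor factor, and 1 at Lmo3, beside 1.7% of all intervals, and leaving out either wild-type list left 0 calls among all intervals. Over both genotypes 1 of 71 was higher in anterior samples, at Lmo3, beside 1.59% of all intervals, and 1 lower, at Isl1, beside 1.78%.

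The genes whose numbers of summits per 10000 followed a member most closely over the 32 lists, among 14767 genes, were taken by Pearson r. They were Rnf7 (0.775), Cacna1i and Rin1 for Lhx1, Grin1 (0.808), Nol4l and Mmp24 for Lhx2, Inka1 (0.735), Ell3 and Cdhr1 for Lhx9, and Evx1 (0.803), Grm4 and Sobp for Lmx1b. For the cofactors they were Tvp23a (0.797), Prkx and Atg101 for Ldb1 and Tnr (0.847), Ccdc83 and Mctp2 for Ldb2, and for the LIM-only genes Arpin (0.726), Dnal1 and Gripap1 for Lmo1 and Bex4 (0.692), Spata3 and Tmem207 for Lmo4. These are small counts from lists that differ in experiment, stage and length, and the values describe the lists only.

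The reach of 50 kb decided which distal summits were kept. At Lmx1b the outermost interval kept lay 42.8 kb beyond the gene and was in 11 lists, and the first one beyond the limit, at 60.4 kb, was in 32 of 32. At Lhx1 these lay at 43.1 kb, in 4 lists, and at 69.1 kb, in 14. At Lmo1 they lay at 43.1 kb, in 14 lists, and at 55.7 kb, in 8. At Lhx2 and Lhx9 they lay at 39.6 and 41.2 kb, in 5 and 6 lists, and at 52.0 and 61.4 kb, in 2 and 3. With a reach of 100 kb the mean number of member summits per list was 45.5, beside 35.8 with 50 kb.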

How the data were processed

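The deposited ATAC-seq files were lists of summits, 1 per library, called by the authors in each library separately, with a -log10 q-value for each summit and a lowest value near that of q = 0.05. Per the labels and methods, reads were aligned to mm10 with Bowtie2 2.2.4, and uniquely mapped, de-duplicated reads were shifted for the Tn5 cut and given to MACS2 (version not given in the sources used here). Since these lists hold no counts, depth was unknown, and list length and the number of samples limit precision.

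Summits were placed in 200-bp intervals, kept when at least 2 libraries listed them within 200 bp of the centre. Genes came from GENCODE M21 (21 is the release). Ties shared their mean rank, and they were common, at 42.5% to 81.8% of the values of a list. The rank score was (N + 1 - rank)/N, on the best N = 30000 summits (15000 at E10.25) for tests and on whole lists for descriptions. An interval was tested when at least 2 of the compared lists held it among their best N summits. Groups were tested by limma 3.58.1 in R 4.3.3 with Benjamini-Hochberg adjustment over all intervals tested, at 0.05. The code was tested on simulated data. Sequences were read with samtools 1.23.1, and figures and tables were made in Python 3.11.15 (pandas 2.3.3, numpy 2.4.6, matplotlib 3.10.9).

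No 2 lists were identical. Where the labels do not say that samples came from separate embryos or pools, p-values measure only the spread between these samples. Forelimb and hindlimb EYFP+ lists of 1 pool deviated together (r = 0.186, 0.184 and 0.421, other pairs -0.247 to 0.0716), and the anterior and posterior samples of 1 embryo come from the same animal. Named intervals were those within 500 bp of a member start, those that passed a test, and the 5 per direction with the largest difference in share between the EYFP+ and the non-expressing lists (ties by higher mean rank score). Members, lists and motif words were chosen with earlier results of these data known. Alternatives were a shorter cut, whole lists, a 100-bp match, no filter on libraries, other reaches, leaving out each replicate and the pool or embryo as a block. Joined sites, ties in genome order, the 2 added anterior-posterior contrasts, and lists without pool 758 or without the 2 shortest E10.25 Etv2CKO lists were chosen after seeing the data.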

Additional observations from a re-analysis of the deposited data

Results flagged for a closer look

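Among the per-list counts of member summits, 5 values lay apart from the rest of their group by Dixon's criterion. They came from 27 sets of counts examined, in groups of 4 or more lists, and sets without spread could not be flagged. The usual chance rate of about 1 in 20 was not worked out for counts as small as these. All 5 arose in small whole-number counts whose other values in the group were equal. In anterior controls, embryo 3 held 0 Lhx1 summits where the nearest of the others held 1, embryo 1 held 4 Lhx9 summits where the others held 5, and embryo 4 held 6 Lmo4 summits where the others held 8. In posterior controls, embryo 4 held 2 Lhx1 summits where the others held 1, and embryo 2 held 3 Ldb1 summits where the others held 2.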

How the results depend on the processing

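Under the alternatives, 221 of 270 member results stayed and 49 moved. A count stayed when it was within 1.5 times the reported count, or when both were 0. The mean number of member summits per list stayed when it shifted by less than the spread within groups. The cause was not tested. Counts of member calls that moved follow. Higher in anterior controls (2 as reported): 0 at 15000 summits (0.5 of the length), 1 with whole lists, 1 with a 100-bp match, 1 without the library filter and 1 to 2 with 1 replicate left out. Over both genotypes, higher (2): 0, 1, 1 and 1 in the same order, and 0 to 1 with 1 replicate left out. With the embryo as a replicate block these 2 counts were 0 and 0. Lower over both genotypes (1): 0 at 0.5 of the length and 4 with whole lists. With whole lists, 2 member intervals were lower in anterior controls, 2 fell with overexpression in posterior samples (Lhx9 64.4 kb and Lhx9 5.0 kb), and 2 were higher in E10.25 wild type (Lhx2 2.5 kb upstream and Ldb2 113.2 kb). Whole lists differ in length between groups, and no share of all intervals is given beside the whole-list counts. They are therefore not read as a trait of the members. Without Etv2_OE_A embryo 7, 1 fell in anterior samples (Lhx9 6.1 kb); leaving out 1 replicate gave 0 to 1 there. On the EYFP+ side of the listing pattern (5) the count was 2 with the best 15000 summits, 5 to 8 with 1 list left out, 8 without pool 758 and 3 for joined sites. On the other side (0) it was 1, 0 to 1, 1 and 1, and 2 without the 2 shortest E10.25 Etv2CKO lists. Mean member summits per list (35.8) were 9.41 with the best 15000 summits and 45.5 with a reach of 100 kb. Ties in genome order are among the alternatives counted here. Over all intervals, with 1 replicate left out, calls ranged over 0 for forelimb against hindlimb (8 higher and 14 lower as reported; 0 and 0 with the pool as replicate block), 33 to 265 higher and 32 to 58 lower for anterior overexpression, 18 to 190 and 18 to 71 for posterior overexpression, and 0 to 477 and 0 to 126 at E10.25, where leaving out either wild-type list left 0. Under the other alternatives they ranged over 0 to 99 and 0 to 90, 12 to 44 and 8 to 71, 8 to 49 and 4 to 432, and 200 to 2166 and 37 to 103, and for anterior against posterior controls 113 to 513 and 120 to 2219. The blocks changed no other member call.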
